A study of Mus musculus with 2 samples.

Results

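Glutamine synthetase (gene symbol Glul, transcript ENSMUST00000086199 in the files) was 1 of 500 genes measured in mouse liver by MERFISH, an imaging method that reads single RNA molecules in place by their optical barcodes. It was chosen for 2 patterns already seen in these data, the narrowness of its zone and its level in macrophages and endothelial cells against hepatocytes, so its zone and its levels in cell groups are given as descriptions without a test. Its change in other cells with the Glul of surrounding hepatocyte cells is also described, and p-values are given for other genes only. The samples were 2 sections of whole liver in 1 group, replicates 1 and 2, and neither label gives a strain, age, genotype or treatment. The design text of the series speaks of metastasis-bearing mice given agents for 10 days, which no label connects with either section, and the tag 2d in both labels was left uninterpreted. Nothing states that the sections came from separate animals. Differences in level between the sections were taken out before testing. The p-values measure only how differently changes within a section came out in these 2 sections, with the spread partly shared over genes. That spread may be technical.

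Glutamine synthetase joins ammonia to glutamate and makes glutamine. In the liver its textbook home is a thin sleeve of hepatocytes around each central vein, where it captures the ammonia that the urea cycle of the upstream, periportal hepatocytes lets through. Wnt ligands from the endothelium of the central vein, acting through beta-catenin and TCF/LEF factors, keep the gene on there.

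The 250 bases before the start of Glul and of Cyp2e1, a pericentral cytochrome P450 that rose with neighbouring Glul in hepatocyte cells below, are shown because both genes were high in the same places. They come from RefSeq on GRCm38.p6, chr1:153899679-153899928 for Glul and chr7:140763569-140763818 for Cyp2e1, both on the plus strand and written 5′ to 3′. Capitals mark 3 motifs searched on both strands, the CCAAT box CCAAT, the GC box GGGCGG and the TCF/LEF core CTTTGA, and no match overlapped another.
Glul: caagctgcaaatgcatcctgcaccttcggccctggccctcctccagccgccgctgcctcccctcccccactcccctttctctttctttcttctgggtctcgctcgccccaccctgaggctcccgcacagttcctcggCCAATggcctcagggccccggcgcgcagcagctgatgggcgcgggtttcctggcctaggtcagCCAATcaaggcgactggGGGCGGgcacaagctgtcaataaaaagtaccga
Cyp2e1: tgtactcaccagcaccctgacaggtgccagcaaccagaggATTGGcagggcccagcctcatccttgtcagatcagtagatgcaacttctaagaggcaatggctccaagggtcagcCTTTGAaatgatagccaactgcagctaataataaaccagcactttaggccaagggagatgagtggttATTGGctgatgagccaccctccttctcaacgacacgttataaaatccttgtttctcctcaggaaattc

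The Glul window held 2 CCAAT boxes, 1 GC box and 0 TCF/LEF cores, and the Cyp2e1 window held 2 CCAAT boxes, 0 GC boxes and 1 TCF/LEF core. Of 32851 promoter windows in the table, 33.8% held CCAAT, 32.7% held GGGCGG and 13.8% held CTTTGA. A match is a description of these letters only.

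Section 1 held 26037 segmented cells and 715621 gene transcripts, and section 2 held 85929 cells and 724847 gene transcripts. Cells with at least 10 counts of genes other than Glul were kept, 9181 (35.3%) with a median of 27 counts in section 1 and 16082 (18.7%) with a median of 15 in section 2, and the sections shared 0 cell identifiers. The 50 blank barcodes, which name no gene, averaged 185 and 72.4 transcripts, with highest values of 987 and 2140.

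Glul was well above that background. It had 5220 transcripts in section 1 (0.729% of all gene transcripts) and 6570 in section 2 (0.906%), which made it the gene of rank 21 and 17 among 500. At least 1 Glul count lay in 8.20% of all cells of section 1 and 4.65% of those of section 2, and the highest cell held 16 and 11. Of the Glul transcripts, 42.9% and 30.9% lay outside every segmented cell, beside 40.1% and 34.4% of all gene transcripts.

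Glul was present across both sections at a low level and high in a small number of places. Tiles in which smoothed Glul from segmented cells reached at least 2 times the section share, joined over at least 10000 square µm (the unit of length is assumed from cell sizes), formed 29 patches in section 1 and 33 in section 2. They covered 7.88% and 9.42% of the tissue. The median patch measured 16000 and 19600 square µm and was 1.73 and 1.70 times as long as wide, and the longest ran 733 and 1016 µm. The patches of section 2 were larger, up to 204400 square µm against 97600 in section 1.

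**Figure D1:**
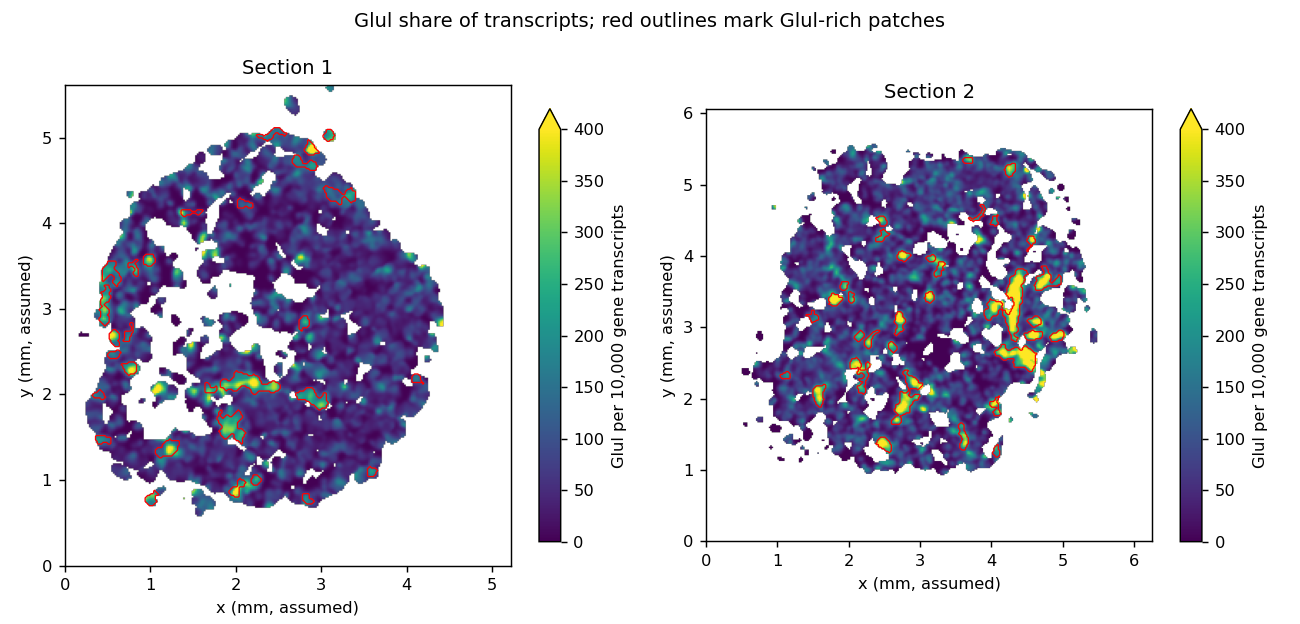
Maps of both sections, with x and y in mm (assumed), coloured by Glul per 10000 gene transcripts after smoothing, white where transcripts were too few, and with the 29 and 33 Glul-rich patches outlined in red. Glul is high in scattered places over a low level elsewhere, with 9 and 10 patches over 2 times as long as wide. The largest patch of section 2 exceeds any in section 1.

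The patches were drawn from Glul inside cells, so the transcripts outside cells, which played no part in drawing them, served as the readout. In section 1 the level of these outside transcripts was 198 Glul per 10000 gene transcripts within patches (95% Poisson interval 179 to 218, counting error only), 122 at 0 to 20 µm from a patch, 123 at 20 to 40 µm, 84.7 at 40 to 60 µm and 61.9 beyond 200 µm. In section 2 it was 287 within patches (262 to 314), 135 at 0 to 20 µm, 83.3 at 20 to 40 µm, 64.6 at 40 to 60 µm and 64.4 beyond 200 µm. Outside transcripts were thus 3.20 and 4.45 times as rich in Glul within patches as beyond 200 µm. They came down to the far level within about 60 µm of the patch edge in section 2 and about 100 µm in section 1, where the value at 80 to 100 µm was 64.1. Without the largest patch of each section the level within patches was 187 and 277, and 23 of 29 and 31 of 33 patches lay above the far level of their section. Outside transcripts include those of cells that segmentation did not outline.

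Other zonated genes were read out around the same patches. Cyp2e1, which oxidises ethanol and many drugs, stood at 71.3 per 10000 outside transcripts within patches and 42.1 beyond 200 µm in section 1, and at 83.5 and 32.2 in section 2. Its level at 0 to 20 and 20 to 40 µm was 55.6 and 53.3 in section 1 and 91.0 and 64.8 in section 2. Gulo, the last enzyme of vitamin C synthesis in the mouse, stood at 135 within patches and 74.9 far away in section 1, and at 80.6 and 52.0 in section 2. Cyp2f2, a periportal cytochrome P450, ran the other way, at 14.5 within patches and 31.0 far away in section 1. In section 2 it had 3 transcripts within patches, 1.74 per 10000 (0.359 to 5.08), and 19.1 far away.

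**Figure D2:**
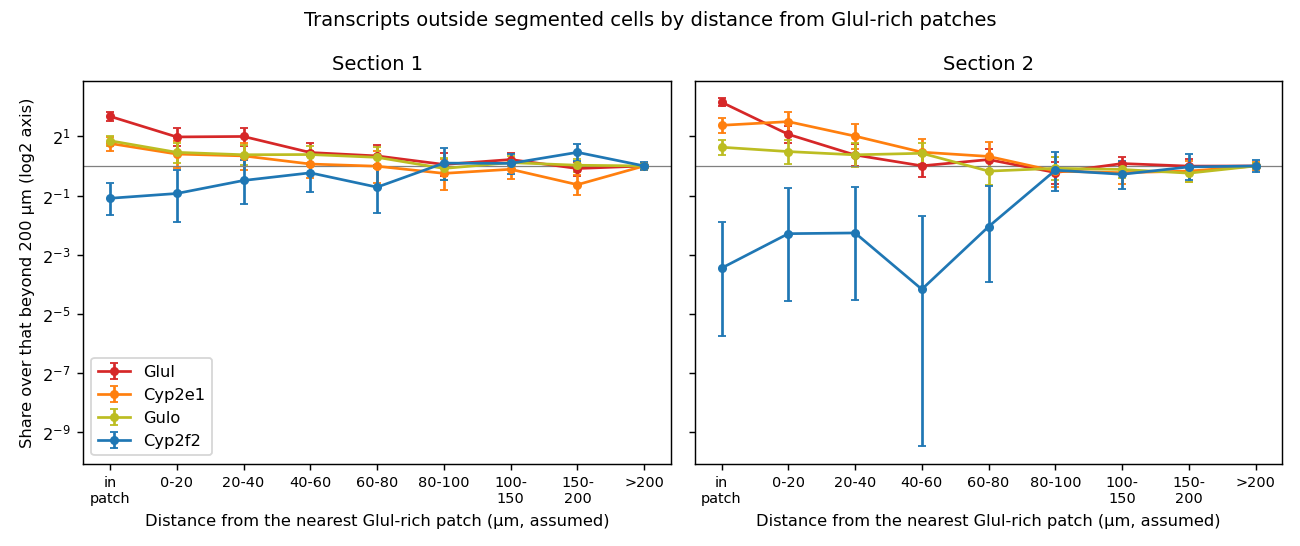
Transcripts outside segmented cells by distance in µm (assumed) from the nearest Glul-rich patch, as each gene's share over its own share beyond 200 µm on a log2 axis, with 95% Poisson intervals. Glul is 3.20 and 4.45 times its far share within patches and returns to it within 100 µm, while Cyp2f2 is below its far share.

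Around single Glul transcripts the zone was measured a second way, as the share of Glul among the transcripts in rings, over the section share. Pairs within the same segmented cell were left out. Transcripts outside segmented cells stayed in, so pairs from a cell that was not outlined were counted. At 10 to 20 µm this enrichment was 1.63 in section 1 and 1.80 in section 2, and its excess over 1 had fallen to 0.5 of that value, linearly between rings, at 76.3 and 58.3 µm. The same distance for Cyp2e1 around Cyp2e1 was 56.1 and 89.1 µm and for Gulo around Gulo 60.8 and 74.1 µm. Glul thus had the longest of these 3 distances in section 1 and the shortest in section 2, so neither order held in both sections. With transcripts in segmented cells only, the distance for Glul was 61.3 and 67.5 µm, so the order of the sections turned. Rnase4 was shorter than Glul in both sections, at 33.0 and 39.4 µm, as was Pck1 at 40.2 and 54.7 µm, and Cyp2f2 began higher, with enrichments of 3.18 and 3.57 and distances of 56.0 and 57.8 µm.

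Among 235 genes with at least 200 transcripts in both sections, the 5 most enriched at 25 to 50 µm from Glul transcripts were Rnase4, Oat, Cyp2e1, Col3a1 and Gulo. Glul around itself gave 1.60 and 1.58 in sections 1 and 2. Rnase4, a secreted ribonuclease, gave 1.44 and 1.59, and Oat, the ornithine aminotransferase, gave 1.45 and 1.27. Cyp2e1 gave 1.27 and 1.37 and Gulo 1.23 and 1.30. Col3a1, a fibrillar collagen of mesenchymal cells, gave 1.45 and 1.16. All blank barcodes together gave 0.757 and 0.561. In section 1 the 15 blanks with at least 200 transcripts gave 0.595 to 0.921, so none of them shared the enrichments. In section 2 only 1 blank had that many, at 0.388, and the pooled value there rested largely on it.

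Position in the lobule was then scored without Glul, from Cyp2e1 and Gulo against Pck1, Ass1 and Hsd17b13 in the hepatocyte cells within 50 µm of each hepatocyte cell, with the cell itself left out. Hepatocyte cells here had at least 2 counts of 8 hepatocyte markers and fewer than 2 of the markers of every other group. From the most periportal to the most pericentral of 10 bins, Glul in section 1 was 45.1, 43.9, 55.0, 61.5, 56.5, 67.3, 55.0, 85.1, 106 and 131 per 10000 gene counts. In section 2 the bins held 48.3, 53.0, 62.4, 63.2, 63.5, 57.9, 85.8, 94.1, 125 and 166. The first 7 bins of section 1 lay between 43.9 and 67.3 and the first 6 of section 2 between 48.3 and 63.5, with overlapping 95% Poisson intervals, and the later bins lay above these in both sections. The last bin held 2.91 and 3.44 times the Glul of the first. With the pericentral landmarks alone these ratios were 3.11 and 3.48, and with the periportal landmarks alone 1.28 and 2.40. Tied scores left the bins of section 1 uneven, at 169 to 509 cells.

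**Figure D3:**
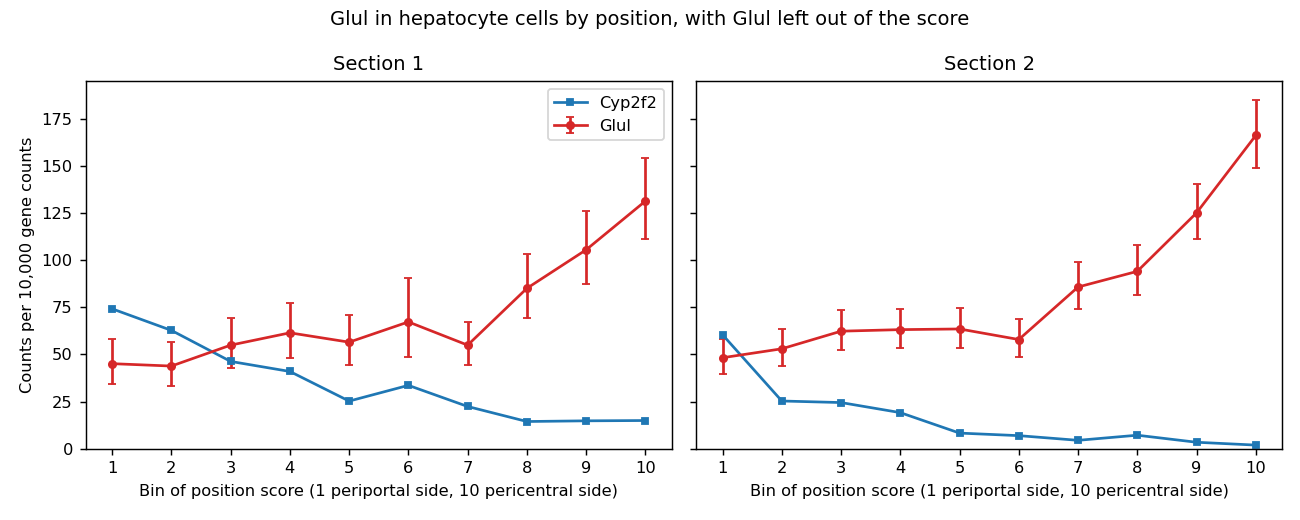
Glul (red, 95% Poisson intervals) and Cyp2f2 (blue) per 10000 gene counts of hepatocyte cells in 10 bins of a position score built without either gene, for both sections. Glul goes from 45.1 to 131 in section 1 and from 48.3 to 166 in section 2, with most of the increase in the last bins.

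Glul was also concentrated in a minority of hepatocyte cells, though far from confined to them. The 10% of hepatocyte cells whose neighbours within 50 µm had the most Glul held 27.5% of hepatocyte Glul in section 1 and 25.4% in section 2, with 8.84% and 9.15% of their gene counts. In 3 equal bins of hepatocyte cells by neighbouring Glul, low, middle and high, the cells' own Glul was 42.2, 53.7 and 115 per 10000 in section 1 and 59.4, 62.1 and 123 in section 2. The intervals of the low and the middle bin overlapped in both sections, and the high bin stood apart in both.

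The other genes of hepatocyte cells were tested between the high and the low bin with edgeR's quasi-likelihood test on counts summed per section and bin, section as a block and Glul left out. At an adjusted p under 0.05, 23 of 321 genes were called, 7.17%. Of these, 13 were higher with neighbouring Glul (4.05%) and 10 lower (3.12%). Among the 23 called genes 22 moved the same way in both sections, beside 171 of all 321 tested. The calls themselves drew on both sections, which favours such agreement. The number of calls depended on the settings: DESeq2 called 2 genes, and edgeR 0 in cells of at least 20 counts, with 24 at an unadjusted p under 0.05. Of 11 tested genes of a pericentral list 8 rose and 0 fell, and of 10 periportal genes 0 rose and 4 fell. The median log2 change was 0.85 over the pericentral and -0.45 over the periportal list, beside -0.04 over all genes tested.

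Of the 13 genes that rose, 8 were on the pericentral list. Cyp2e1 was 30.7, 28.9 and 50.2 per 10000 counts of the other genes in section 1 and 26.6, 29.4 and 57.5 in section 2, so the high bin stood out. It rose by 0.85 on the log2 scale (SE 0.14, adjusted p = 1.03e-06 by edgeR). Axin2, a feedback inhibitor that Wnt signalling itself induces, was 7.56 in the low and 12.8 in the high bin of section 1 and 3.33 and 9.86 in section 2, and rose by 1.08 (SE 0.26, adjusted p = 0.0023 by edgeR). Lect2, a secreted protein of hepatocytes, rose by 1.51, Rnase4 by 1.24 and its locus neighbour Ang, which encodes the ribonuclease angiogenin, by 1.53. Ang had 3 and 7 counts in the low and high bins of section 1, where the mean blank barcode had 7.70 and 7.34, so in section 1 it was within background. Cyp1a2, a P450 that metabolises caffeine, rose by 1.32, Cyp7a1, which sets the pace of bile acid production from cholesterol, by 0.72, and Gulo by 0.47. Outside the list, Gsta3, a glutathione transferase, rose by 0.58 and Sord, the sorbitol dehydrogenase that is also a hepatocyte marker here, by 0.31.

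The remaining genes that rose are better known from other cells. Wnt2, a ligand of liver endothelium, had 14 counts in the low and 22 in the high bin of section 1 and 6 and 30 in section 2, and rose by 1.34 (SE 0.39, adjusted p = 0.014 by edgeR). Oit3, one of the endothelial markers, rose by 0.66 and Gata2, a transcription factor of blood and endothelium, by 1.63, with 2 and 7 counts in section 2 beside a mean blank of 3.28 and 3.62. All blanks together stood at 93.4 and 96.8 per 10000 in the low and high bins of section 1 and at 22.6 and 24.8 in section 2. The highest single blank had 47 and 44 counts in these bins of section 1 and 63 and 60 in section 2. Every Wnt2 count lay below that, though above the mean blank. The same held for Axin2 in the low bins of both sections and for Oat in every bin. Summed over the 6 endothelial markers, these hepatocyte cells held 23.8, 27.0 and 39.6 counts per 10000 by bin in section 1 and 24.7, 23.4 and 29.1 in section 2, with at most 1 marker at 0. The part of endothelial RNA in the Wnt2, Oit3 and Gata2 results was not tested.

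The genes that fell were led by periportal ones. Cyp2f2 was 37.0, 41.3 and 27.0 per 10000 in section 1 and 21.4, 21.6 and 6.80 in section 2, and fell by 1.07 on the log2 scale (SE 0.18, adjusted p = 1.03e-06 by edgeR). Hsd17b13, a lipid droplet enzyme, fell by 0.80, Pck1, the gatekeeper of gluconeogenesis, by 0.37, and Sox9, a transcription factor of bile duct and periportal cells, by 1.07. Cxcr4, a chemokine receptor, fell by 1.34, Slc39a5, a zinc transporter, by 0.61 and the heparan sulfate proteoglycan Sdc1 by 0.55. Fn1 and Fga, which encode fibronectin and a fibrinogen chain, fell by 0.26 and 0.25. The matrix protein gene Thbs1 fell by 0.62, but this rested on section 1, where its log2 change was -1.05. In section 2 it was 0.08.

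None of 5 tested genes of glutamine and ammonia handling passed the test. Their median log2 change was -0.37. Oat, which makes glutamate from ornithine, was 3.17, 3.16 and 8.27 per 10000 in section 1 and 4.58, 4.11 and 7.36 in section 2, with a log2 difference of 0.85 (SE 0.30, adjusted p = 0.054 by edgeR). The urea cycle genes Arg1, Ass1 and Asl had log2 differences of -0.53, -0.37 and -0.36, with adjusted p-values of 0.055, 0.060 and 0.31 by edgeR. Of 5 tested Wnt targets and receptors Axin2 rose. The target Tbx3 had a log2 difference of 0.50 and an adjusted p of 0.62 by edgeR. Of 2 genes listed for the endothelium of the central vein Wnt2 rose, and Kit, a receptor tyrosine kinase, had a log2 difference of 1.01 with an adjusted p of 0.26 by edgeR.

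**Figure D4:**
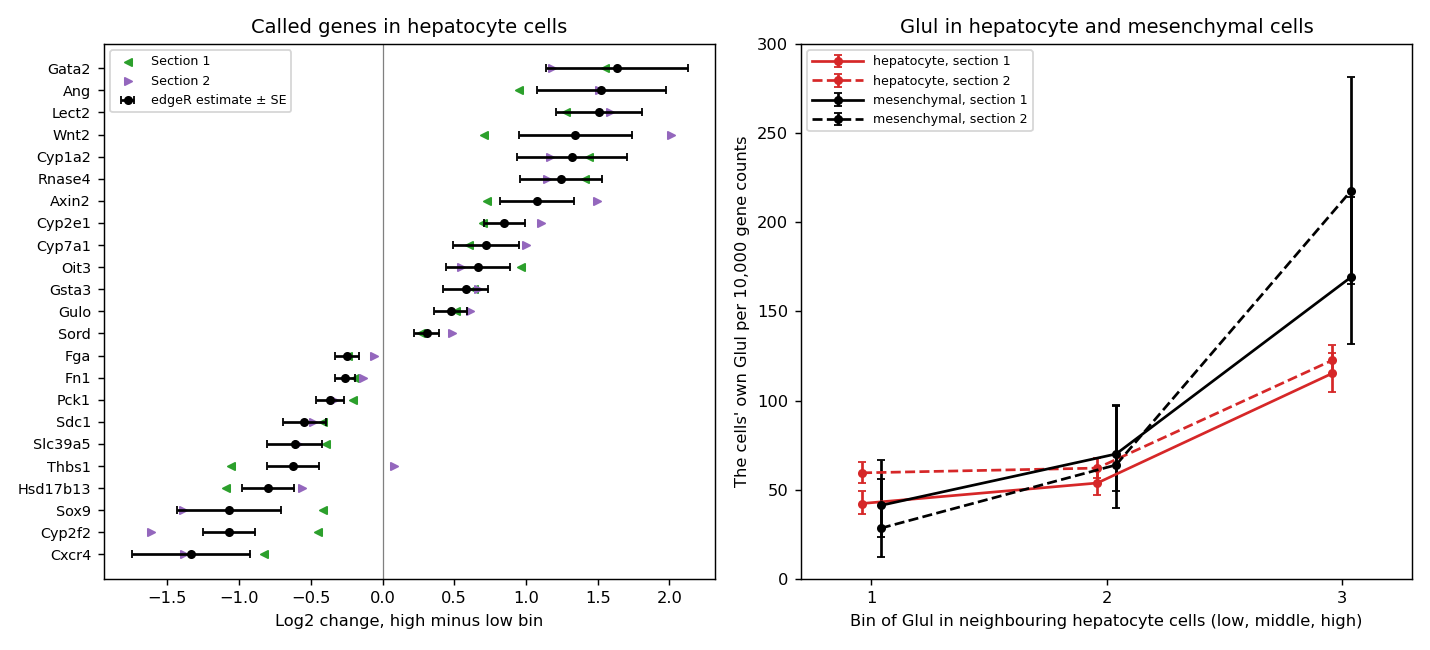
Left, log2 change between the high and low bin of hepatocyte cells by neighbouring Glul for the 23 called genes (edgeR estimate with SE in black, each section as a triangle). Right, Glul per 10000 gene counts by bin in hepatocyte (red) and mesenchymal (black) cells, section 1 solid and section 2 dashed, with 95% Poisson intervals. Bins were cut within each group, so the same bin holds different levels of neighbouring Glul in the 2 groups.

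The level of Glul was compared between cell groups defined by markers, each by at least 2 counts of its own list. Endothelial cells held 96.8 Glul per 10000 gene counts in section 1 (384 cells, 85.7 to 109) and 112 in section 2 (129 cells, 78.3 to 156). Mesenchymal cells held 96.0 (566 cells, 84.6 to 109) and 93.8 (532 cells, 76.8 to 113). Macrophages held 70.4 (275 cells, 59.5 to 82.8) and 94.9 (229 cells, 69.8 to 126).

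Hepatocyte cells held 66.5 (5288 cells, 63.0 to 70.3) and 80.9 (13216 cells, 77.4 to 84.6). Erythroid cells held 57.8 (51.7 to 64.4) and 72.9 (57.0 to 92.0), lymphoid cells 50.9 and 56.1, and monocytes and neutrophils 42.4 and 43.4. The order was thus the same in both sections except that macrophages and mesenchymal cells changed places. The intervals of neighbours in this order overlapped, apart from those of mesenchymal cells and macrophages in section 1. Between the sections, both endothelial values lay above both hepatocyte values, while macrophage and hepatocyte values overlapped.

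**Figure D5:**
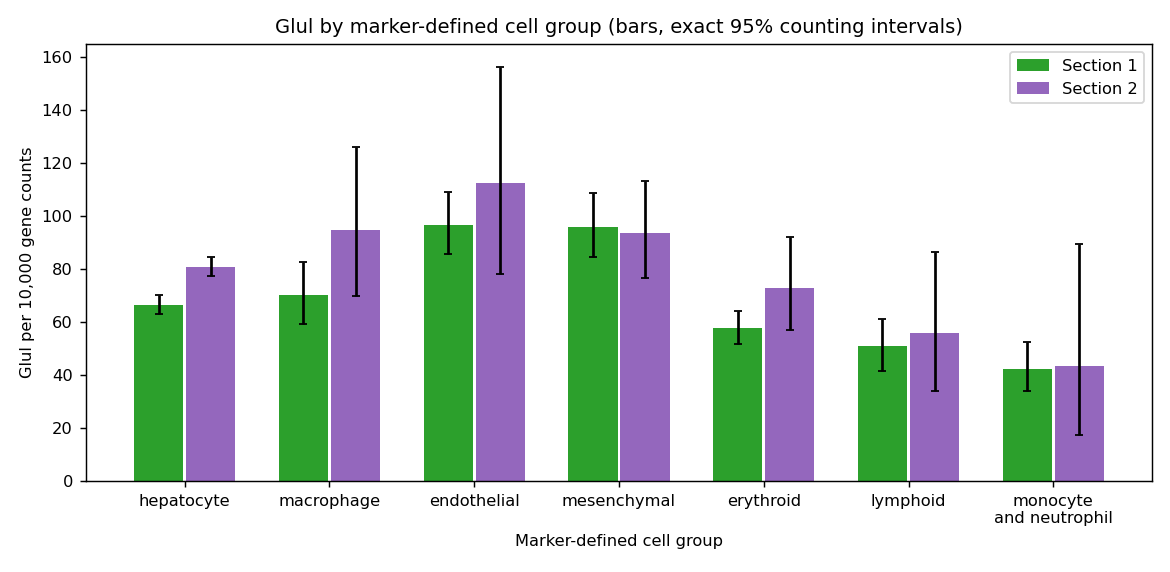
Glul per 10000 gene counts in 7 marker-defined cell groups, section 1 in green and section 2 in purple, with exact 95% Poisson intervals. Endothelial cells are highest (96.8 and 112) and monocytes and neutrophils lowest (42.4 and 43.4).

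Macrophages had 1.06 and 1.17 times the hepatocyte level of Glul in sections 1 and 2, and endothelial cells 1.45 and 1.39 times. With groups placed by at least 3 marker counts these ratios were 1.08 and 0.968 for macrophages and 1.42 and 1.03 for endothelial cells, so neither group stood above hepatocyte cells in section 2 by more than 1.03 times. Over the same 237 genes, the median ratio to hepatocyte cells was 1.04 and 1.16 for macrophages, and Glul ranked 118 and 117, in the middle. For endothelial cells the median was 0.939 and 1.01 and Glul ranked 65 and 72. The 8 hepatocyte markers had lower ratios, 0.486 to 0.615 and 0.437 to 0.678 in macrophages. In endothelial cells they had 0.472 to 0.679 and 0.348 to 0.863. Hepatocyte cells were defined by counts of these markers, so low ratios were partly built in. Cyp2e1, which was not a marker, had 0.575 and 0.537 in macrophages and 0.819 and 1.28 in endothelial cells. Gulo had 0.650 and 0.630 in macrophages and 0.900 and 0.648 in endothelial cells. In erythroid cells Glul had 0.868 and 0.901, beside marker medians of 0.551 and 0.473. The 8 markers still made up 17.4% and 18.0% of macrophage counts and 19.2% and 21.3% of endothelial counts, beside 29.2% and 33.3% in hepatocyte cells.

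Most cells of each group had no Glul count. At least 1 count was found in 18.2% and 12.5% of hepatocyte cells (95% Wilson intervals 17.2% to 19.2% and 11.9% to 13.0%). The shares were 36.4% and 18.8% of macrophages and 38.8% and 21.7% of endothelial cells, but depth differed, with medians of 25 and 16 counts in hepatocyte cells, 59 and 18 in macrophages and 56.5 and 19 in endothelial cells. Thinned to 10 counts a cell, the shares became 6.56% and 7.15% for hepatocyte cells, 6.97% and 9.44% for macrophages and 9.15% and 9.20% for endothelial cells. Lymphoid cells, with medians of 51 and 17.5 counts, gave 4.33% and 5.44% at that depth. The hepatocyte cell with the most Glul held 13 and 11 counts, the endothelial cell 16 and 4 and the macrophage 5 and 2.

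The ratios were also taken within neighbourhoods. Against hepatocyte cells within 50 µm of them, macrophages had 1.10 and 1.07 times the Glul level, endothelial cells 1.23 and 1.30 times and mesenchymal cells 0.711 and 0.995 times. Within 4 µm of the cell centre lay 40.1% and 29.8% of the Glul of macrophages, beside 28.9% and 18.8% of their hepatocyte markers and 49.3% and 42.6% of their own markers. In endothelial cells these shares were 32.6% and 31.4% for Glul, 28.8% and 21.0% for hepatocyte markers and 47.9% and 30.7% for their own. The 95% Wilson intervals for Glul were 32.6% to 48.2% and 18.7% to 44.0% in macrophages and 27.3% to 38.4% and 18.6% to 48.0% in endothelial cells. In macrophages they overlapped the interval of the cells' own markers (46.5% to 52.2% and 38.6% to 46.7%) in both sections. In section 2 the macrophage interval also held the share of hepatocyte markers. In endothelial cells they held the share of hepatocyte markers in both sections, and in section 2 also that of the own markers. All genes together had 38.2% and 29.2% in macrophages and 37.2% and 29.3% in endothelial cells, each within the interval for Glul. The part of RNA from overlapping neighbours in these levels was not tested.

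Glul in other cells was then set against Glul in the hepatocyte cells around them. Bins were cut within each cell group, so the same bin did not mean equal surroundings. In the high bin, neighbours of mesenchymal cells had a mean Glul share of 3.40% in section 1 and 2.57% in section 2. For hepatocyte cells these shares were 1.55% and 1.70%, so the slopes of the groups cannot be compared directly. In mesenchymal cells Glul was 41.2, 70.0 and 169 per 10000 by bin in section 1 and 28.4, 63.9 and 218 in section 2, and no interval of a high bin overlapped that of a low bin. Its log2 difference was 2.49 (SE 0.32), and 1.89 with cells placed by at least 3 marker counts. It is given without a p, because mesenchymal cells were compared after these values were seen and the comparison follows the zone for which Glul was chosen. The comparison held 73 genes with Glul among them, and none of the others passed edgeR's threshold. Hepatocyte markers took 17.8%, 18.8% and 14.7% of the counts of mesenchymal cells by bin in section 1 and 16.4%, 19.9% and 14.4% in section 2, so they were lowest in the high bin. The 4 mesenchymal markers took 1413, 862 and 2537 per 10000 in section 1 and 2580, 1867 and 2790 in section 2, highest in the high bin. The pericentral genes Gsta3 and Cyp2e1 had log2 differences of 1.79 and 1.67, with adjusted p-values of 0.081 and 0.13 by edgeR.

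Macrophages and endothelial cells were too few for 3 bins, with as few as 49 and 40 cells in a bin, and were split in 2 after this was seen. In macrophages Glul was 71.2 and 91.6 per 10000 in section 1 and 83.3 and 103 in section 2, and the log2 difference of 0.36 (SE 0.31) had an adjusted p of 0.71 by edgeR. Of 50 genes 1 was called, 2%, Gulo, which rose by 1.13. In endothelial cells Glul was 74.0 and 126 per 10000 in section 1 and 88.5 and 138 in section 2. Its log2 difference was 0.64 (SE 0.40), and the intervals of the bins overlapped in section 2 but not in section 1. Of 62 genes 1 was called, 1.61%, Thbs1, whose section values went opposite ways, with log2 changes of -2.94 and 1.71. In the planned 3 bins, which were not tested, Glul was 72.7, 65.3 and 104 per 10000 in macrophages of section 1 and 86.3, 108 and 83.1 in those of section 2, so the high bin was above the low bin in section 1 and below it in section 2. In endothelial cells the 3 bins held 82.8, 70.9 and 145 in section 1 and 87.8, 83.8 and 180 in section 2, highest in the high bin of both. Whether the change in mesenchymal cells differed from that in macrophages or endothelial cells was not tested.

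Mesenchymal cells were also more frequent where Glul was high. They made up 16.6% of kept cells within the patches and 5.19% elsewhere in section 1, and 7.30% and 2.96% in section 2. Outside cells, the 4 mesenchymal markers stood at 489 per 10000 within patches, 105 at 20 to 40 µm and 269 beyond 200 µm in section 1, and at 295, 156 and 151 in section 2. Endothelial cells made up 5.13% within and 4.18% elsewhere in section 1, and 0.839% and 0.809% in section 2. Macrophages made up 1.88% and 3.14% in section 1, and 1.26% and 1.45% in section 2, and erythroid cells 5.75% and 11.9%, and 0.587% and 2.36%. Within patches there were 15 macrophages in each section, and in section 2 only 10 endothelial and 7 erythroid cells. The patches were drawn from Glul of all segmented cells, so the share of a group within them is not independent of its own Glul. These shares come from 2 sections and carry no test.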

How the data were processed

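The deposited tables give, for every outlined cell, raw counts of 500 genes and 50 blanks and the cell's position, and for each decoded transcript its own position. The deposited volume of a cell was treated as a signal that cannot be negative. Per the labels' protocols, frozen livers were cut on a cryostat and imaged on a Vizgen instrument; the software for decoding and segmentation is not given in the sources used here, and µm is assumed.

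Blank barcodes stayed out of totals. Cells were grouped by marker counts, ties were left unplaced, and neighbours were hepatocyte cells within 50 µm, at least 5. Sums per section and bin went to edgeR 4.0.16 (TMM, at least 50 counts over the sums, Benjamini-Hochberg over all genes tested; R 4.3.3). DESeq2 1.42.0 was an alternative. In simulated counts the hepatocyte test recovered 80.7% of genes changed 2-fold (323 genes), the mesenchymal 38.2%, the endothelial 64% and the macrophage 20%. Of the calls, 15.8% were false in the endothelial simulation and 0% in the others. The simulation gave all genes the same fixed spread and each changed gene the same change in both sections. These rates therefore hold for that setting only and may not carry over to the real counts. Poisson and Wilson intervals at 95% cover counting error only. Maps used 20 µm tiles and a Gaussian of SD 30 µm (scipy 1.17.1).

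Glul, the marker lists and the gene lists were chosen with earlier results of these data known. Named genes are Glul, the 5 most enriched around it, the 5 highest and 5 lowest called genes of each test, and called members of the lists. The tests of macrophages and endothelial cells in 3 bins were not run because a sum held under 50 cells; the 2 bins, the mesenchymal test and the patches were chosen after seeing the data.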

Additional observations from a re-analysis of the deposited data

How the results depend on the processing

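The count of 23 genes in hepatocyte cells became 2 with DESeq2 (20 at an unadjusted p under 0.05), 0 without the section block (4), 2 with neighbours within 30 µm, 15 within 100 µm, 0 in cells of at least 20 counts (24), 12 by Glul counts per neighbouring cell and 14 in 5 bins. Of 270 alternatives for the 23 genes, 134 were counted as unchanged, 133 kept direction but lost the call, and 3 reversed. The 134 include single sections, where no test was possible and direction alone was judged, so fewer than 134 kept the call. The 3 reversals were Thbs1 with 3 marker counts (0.10), Thbs1 by section (-1.05 to 0.083) and Gata2 within 100 µm (-0.19). In endothelial cells Thbs1 ran from -2.94 to 1.71 by section.

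In mesenchymal cells 2 genes passed the threshold with at least 10 counts over the sums or within 100 µm, and 0 without the block or with 3 marker counts. The log2 difference of Glul was 2.54 without the block and 1.89 with 3 marker counts. Over 8 alternatives Glul ranged from 1.89 to 3.25. In macrophages the 1 call became 0 with DESeq2, without the block, within 100 µm, by counts per cell and with at least 10 counts; in endothelial cells it became 0 under the first 4 of these. Alternatives with under 50 cells in a sum were not run.

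As means over the sections, the share of Glul in the top 10% of cells was 26.5%, and 24.3% within 30 µm, 22.8% within 100 µm and 23.3% with 20 counts. The log2 change over position was 1.66, and 0.81 by periportal landmarks, 1.196 within 30 µm and 1.88 within 100 µm. The log2 ratio of macrophages to hepatocyte cells was 0.16, and 0.033 with 3 marker counts, where section 2 alone was -0.05, 0.44 per volume and 0.80 per cell. That of endothelial cells was 0.51, and 0.34 against hepatocyte cells within 50 µm, 0.27 with 3 marker counts, where section 2 alone was 0.04, 0.67 with 20 counts, 0.89 per volume and 1.21 per cell. Glul outside cells in patches over far tissue was 1.92 on the log2 scale and 2.30 at 3 times the section share. Depth limits the rarer groups most, with 35 and 47 Glul counts in the endothelial cells and macrophages of section 2.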
